A study of Sus scrofa with 4 samples.

Results

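Ribosome biogenesis and rRNA processing were followed through 67 genes among the 6765 genes with a single symbol on a porcine Affymetrix array. The rule that picked the genes reads only their symbols, and it was written with earlier results of these data known. Of the 67, 41 matched families of names (NOP, NOL, UTP, RRP, EXOSC, POLR1, GNL, TSR and NOC) and 26 came from 29 named factors, and the other 3 named factors (NCL, BRIX1 and HEATR1) were not analysed here. A gene was represented by its brightest probe set, a set of short probes for a transcript. The 67 genes have 99 probe sets in all, and 27 genes have more than 1. The livers came from male piglets of the cross (German Landrace x Large White) x Pietrain at 7 weeks of age. The control group ate a basal diet low in carnitine for 21 days. The carnitine group ate the same diet with 500 mg/kg of L-carnitine added. Livers were removed 2.5 h after the last meal. RNA of 4 animals was mixed into each pool, and there were 2 pools per diet and 1 array per pool, so that differences between single animals cannot be seen. Pools are numbered here as in the labels.

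Ribosomes are built mainly in the nucleolus. RNA polymerase I copies the rRNA genes into a long precursor, small nucleolar ribonucleoproteins (snoRNPs) guide its chemical modification, and assembly factors cut and fold it together with ribosomal proteins into the small (40S) and large (60S) subunits, while the RNA exosome trims and degrades the spacer pieces. In the liver, an organ that secretes much of the plasma protein, this production line is known to follow feeding and growth. The genes were therefore sorted by step: 6 belong to polymerase I transcription and nucleolar chaperones, 13 to the snoRNP core and rRNA modification, 19 to the small subunit processome and 40S maturation, 20 to 60S assembly and maturation and 6 to the exosome, and 3 have no fixed step.

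Hepatocyte markers gave the brightest signals of all marker lists, with summed signals from 261150.0 to 304970.0 over 9 genes on the 4 arrays. Of 3 controls that set probes at the 3' end against those at the 5' end, a sign of RNA quality and labelling, 2 separated the diets. For GAPDH the 3' signal was 18.7 and 16.1 times the 5' signal with carnitine, 12.5 and 11.6 times without. Actin gave 157 and 136 against 91.2 and 86.7, while EF1A overlapped at 23.4 and 29.6 against 57.9 and 18.2. Their part in the results was not tested. Control pool 2 stood apart in summed signals of some other liver cells. Cholangiocyte markers summed to 7364 there against 1240.3 to 1769 in the other pools, and SPP1 alone gave 6231 of it. Markers of stellate cells and fibroblasts summed to 10361 against 3240.4 to 4275, with 5533 from ACTA2 and 1848 from DCN. Control pool 2 was the highest of the 4 for 3 of 5 cholangiocyte genes. In the other list it was the highest for 5 of 8 genes, while COL1A2 was lowest there. Markers of dividing cells, which also make many ribosomes, summed to 1832 and 2147 with carnitine, 1515 and 1456 without. Of 10 such genes, all had a log2 fold change above 0, against 49.1% of all genes. Both carnitine pools were on top for 7 of them, against 21.5% of all genes. At an unadjusted p under 0.05 only 1 (RRM2) was higher, as were 6.56% of all genes. Within that list CCNA2 and TYMS gave signals below 20 on every array. The part of dividing cells was not tested, and in bulk tissue a change in the share of a cell type and a change in RNA per cell cannot be told apart.

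Genes of ribosome biogenesis gave higher signals in the carnitine pools than in the control pools across most steps. The log2 fold change was positive for 58 of the 67 and negative for 9, and its median was 0.52, a fold of 1.43. For all 6765 genes the median was -0.0089. An unadjusted p under 0.05 in limma, a linear model fitted across all probe sets, was reached by 27 genes that were higher and 0 that were lower. Of all genes, 6.56% were higher and 3.99% lower by this measure. The comparison with genes of like brightness is close to this, since 60 of the 67 lay above the median signal of all probe sets (111), and of these 60, 26 were higher and 0 lower, against 7.98% and 4.37% of all genes above that median. After Benjamini-Hochberg adjustment over all 23999 probe sets 0 of the 67 passed, the smallest adjusted p was 0.208, and 0.00417% of all probe sets passed.

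Both carnitine pools lay above both control pools for 42 genes and below them for 5, while the pools of 20 overlapped. The shares over all genes were 21.5% and 21.0%. A difference of 2-fold or more, the threshold of the study, was reached by 15 genes that were higher and 1 that was lower, against 4.76% and 4.17% of all genes. Dim among these were NOB1 and NAT10, both higher, and EBNA1BP2, which was lower. Above the median signal 13 of 60 were higher and 0 lower, against 117 and 58 of all 5039 such genes. Without carnitine pool 2 the number of genes higher at an unadjusted p fell from 27 to 13, when 1.85% of all genes were higher. By analysis of variance on diet, a test the study names for its data without saying that it was used on the arrays, 11 were higher and 1 lower (EBNA1BP2), when 4.17% of all genes were higher and 3.34% lower.

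**Figure D1:**
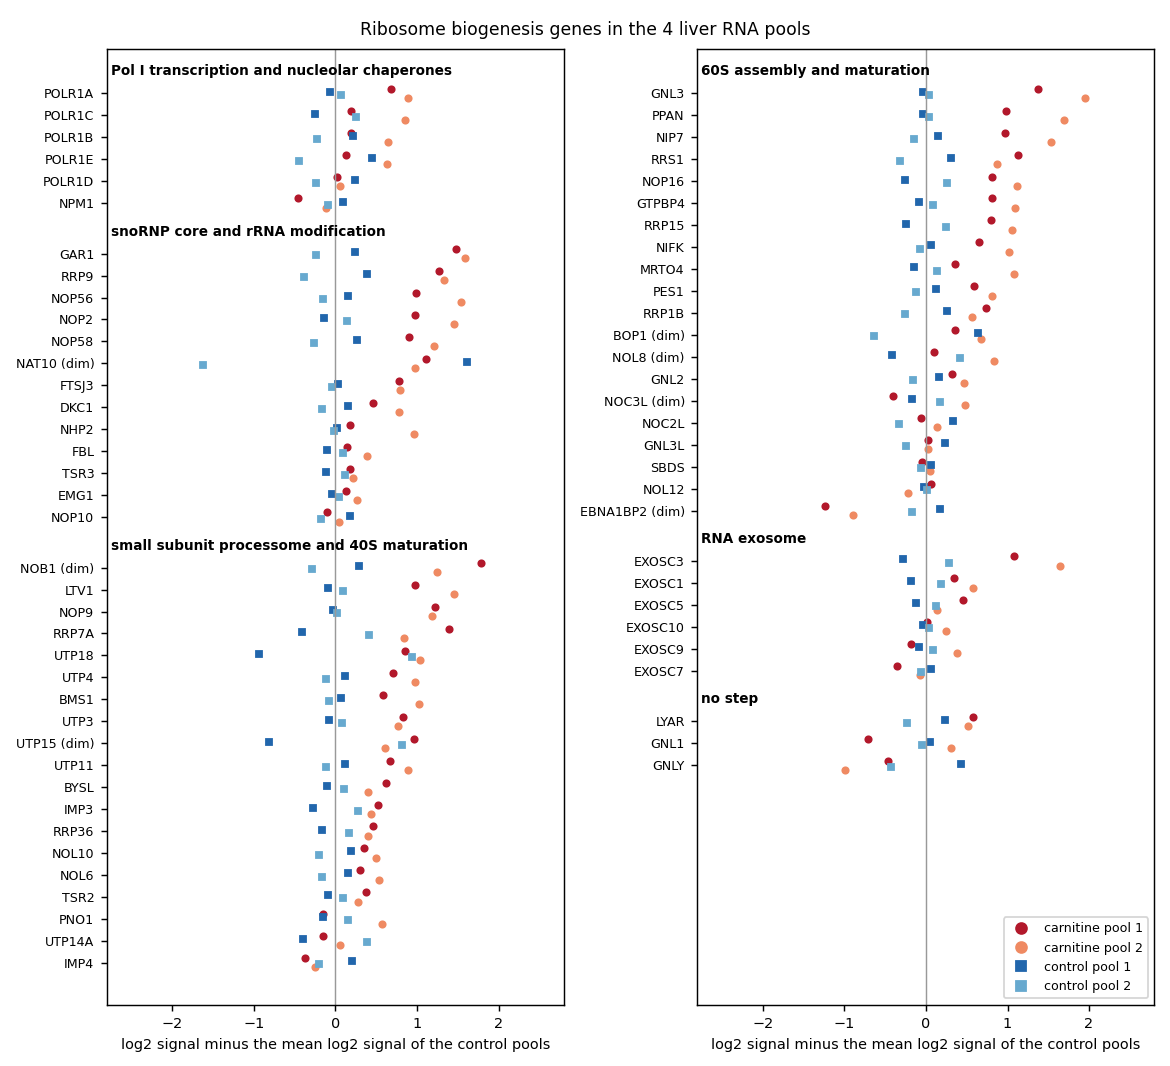
Log2 signal of each of the 67 genes in the 4 pools, relative to the mean log2 signal of the 2 control pools, sorted by step and by log2 fold change. Circles are carnitine pools and squares control pools, and "dim" marks a gene below the median signal. For 42 genes both circles lie to the right of both squares, and for 5 genes to the left.

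In the transcription of rRNA genes, 5 of 6 log2 fold changes were above 0 and 1 below. Both carnitine pools lay above both control pools for 1 gene (16.7%) and below them for 1, against 21.5% and 21.0% of all genes. POLR1A, the largest subunit of RNA polymerase I, had signals of 229 and 265 with carnitine, 135 and 149.6 without, so that the diets did not overlap. Its log2 fold change was 0.79 ± 0.30 (SE, limma adjusted p = 0.532). It was the only one of the 6 genes with an unadjusted p under 0.05, and none was lower by that measure. POLR1B, the second largest subunit, had signals of 126 and 173 with carnitine, 129 and 95.0 without, which overlapped. POLR1C, which polymerases I and III share, gave 324 and 511 against 239 and 337, and carnitine pool 2 alone stood above both controls. The other measured subunits, POLR1E and POLR1D, had log2 fold changes of 0.38 ± 0.36 (SE) and 0.035 ± 0.22 (SE). NPM1, an abundant nucleolar chaperone, ran the other way with signals of 4871 and 6213 with carnitine, 7163 and 6299 without, a log2 fold change of -0.29 ± 0.20 (SE, limma adjusted p = 0.733). The median of the 6 genes was 0.40, but 0.064 without control pool 2, 0.16 without carnitine pool 2 and 0.64 without carnitine pool 1. Control pool 2 is the pool with the high summed signals of cholangiocyte and stellate cell markers, and the part of these cells was not tested.

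Genes of the snoRNP core and of rRNA modification were higher in the carnitine pools in 12 of 13 cases, with a median of 0.79, or 0.27 where a gene is the mean over its probe sets. An unadjusted p under 0.05 was reached by 7 (NOP56, NOP2, NOP58, GAR1, RRP9, FTSJ3 and DKC1), all higher. Both carnitine pools exceeded both control pools for 11 of the 13 and fell below them for 0, against 21.5% and 21.0% of all genes. NOP56, a scaffold of the box C/D snoRNPs that guide methylation of ribose, had signals of 2402 and 3546 with carnitine, 1354 and 1091 without. The lowest carnitine pool was well above the highest control pool, and the log2 fold change was 1.26 ± 0.25 (SE, limma adjusted p = 0.306). NOP58, its partner in the same particle, had signals of 3420.1 and 4245 with carnitine, 2203 and 1524 without, with a log2 fold change of 1.06 ± 0.24 (SE, limma adjusted p = 0.359). The methyltransferase of that particle, FBL, had a narrower gap at 1441 and 1699 against 1217 and 1393, and its log2 fold change of 0.27 ± 0.20 (SE) did not pass.

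The H/ACA snoRNPs, which guide the conversion of uridine to pseudouridine, have 4 core proteins, whose log2 fold changes ran from -0.027 to 1.53. GAR1 had signals of 198 and 214 with carnitine, 83.9 and 60.2 without, and both carnitine pools were more than double the higher control pool. Its log2 fold change was 1.53 ± 0.37 (SE, limma adjusted p = 0.395), a fold of 2.90. DKC1, the pseudouridine synthase, had signals of 594 and 742 with carnitine, 483 and 387 without, a smaller but separate difference of 0.62 ± 0.25 (SE, limma adjusted p = 0.546). The second probe set of DKC1 was also higher, by 0.79 on the log2 scale (unadjusted p = 0.019 from limma). NHP2 gave 869 and 1497 against 782 and 759, where carnitine pool 1 lay close to the controls. NOP10, the smallest protein of the particle, gave 3767 and 4168 against 4573 and 3562, so that its pools overlapped and its log2 fold change was -0.027 ± 0.20 (SE). The differences between these members were not tested.

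Among enzymes that modify rRNA, NOP2, a methyltransferase of 28S rRNA, had signals of 679 and 947 with carnitine, 314 and 381 without. Its log2 fold change was 1.21 ± 0.26 (SE, limma adjusted p = 0.342). FTSJ3, a methyltransferase of the precursor, had signals of 1036 and 1039.6 with carnitine, 617 and 587 without, with little spread within either diet, and a log2 fold change of 0.79 ± 0.20 (SE, limma adjusted p = 0.399). Its second probe set had a log2 fold change of 0.69 (unadjusted p = 0.027 from limma). EMG1 and TSR3, which both modify 18S rRNA, had small separate differences of 0.20 ± 0.19 (SE) and 0.20 ± 0.21 (SE). The acetyltransferase NAT10 was dim, and its control signals of 82.7 and 8.78 enclosed both carnitine signals. RRP9, a protein of the U3 snoRNP needed for early cleavage, had signals of 526 and 549 with carnitine, 285 and 168 without, a log2 fold change of 1.30 ± 0.31 (SE, limma adjusted p = 0.395). Its dimmer probe sets gave 0.60 and -1.69, the last with a signal of only 5.06 on average.

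**Figure D2:**
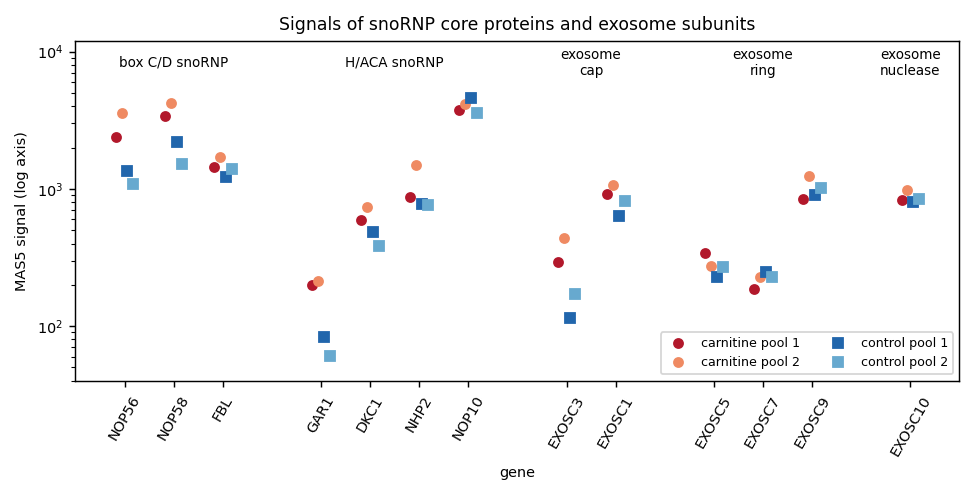
MAS5 signal on a log axis of the core proteins of box C/D and H/ACA snoRNPs and of 6 exosome subunits, with circles for the carnitine pools and squares for the control pools. NOP56, NOP58, GAR1 and EXOSC3 show a clear gap between circles and squares, while the symbols of NOP10, EXOSC9 and EXOSC10 overlap.

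In the small subunit processome and 40S maturation, 17 of 19 genes had positive log2 fold changes, and 8 of them passed an unadjusted p of 0.05, while 0 lower ones did. The median was 0.78, or from 0.46 to 0.51 where dim signals were raised, offset or left out or probe sets averaged. Both carnitine pools were above both control pools for 14 genes, against 21.5% of all genes. NOP9, an RNA-binding protein of 18S rRNA processing, had signals of 617 and 606 with carnitine, 262 and 270.3 without. Pools of the same diet nearly coincided, and the log2 fold change was 1.20 ± 0.23 (SE, limma adjusted p = 0.302). LTV1, which accompanies the 40S precursor to the cytoplasm, had signals of 651 and 902 with carnitine, 309.8 and 352 without, a log2 fold change of 1.21 ± 0.26 (SE, limma adjusted p = 0.340). The processome components UTP3, UTP11 and UTP4 had similar differences of 0.79 ± 0.21 (SE), 0.78 ± 0.21 (SE) and 0.84 ± 0.24 (SE). For UTP3 the signals were 989 and 951 against 528 and 592, for UTP11 1077 and 1252 against 734 and 627 and for UTP4 565 and 680.1 against 376 and 320.0. All 3 were separate between the diets.

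BMS1, a GTPase of the processome, had signals of 419 and 568 with carnitine, 294 and 265 without, a log2 fold change of 0.81 ± 0.26 (SE, limma adjusted p = 0.467). NOB1, the endonuclease that makes the final 3' end of 18S rRNA, had the largest log2 fold change of this step at 1.51 ± 0.46 (SE, limma adjusted p = 0.451), but its signals of 159 and 109 with carnitine, 56.3 and 37.7 without were dim. Its 2 other probe sets, dimmer still, were also above 0. The signals of RRP7A were 226 and 154 against 64.6 and 114, with a wide spread within each diet, and its log2 fold change was 1.12 ± 0.43 (SE, limma adjusted p = 0.533). Smaller separate differences that did not pass were found for IMP3, NOL6, RRP36, BYSL, NOL10 and TSR2, with log2 fold changes from 0.33 to 0.51. The second probe set ran the other way for NOL6 (-1.57, dim), RRP36 (-0.13) and NOL10 (-0.67, dim). Dim further probe sets of BYSL gave 0.54 and -0.30. UTP18 depended on a single array, since its control signals were 65.4 and 239. Its log2 fold change was 0.012 when control pool 1 was left out and 1.88 when control pool 2 was. PNO1, UTP15 and UTP14A overlapped. IMP4, which binds U3 RNA beside IMP3, was the only gene of this step below both controls, at 1028 and 1114 against 1526 and 1158 (-0.31 ± 0.22 (SE) on the log2 scale). The median of the step lay between 0.58 and 0.72 when any pool was left out.

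The largest log2 fold change of all 67 genes was in 60S assembly and maturation. GNL3, the nucleolar GTPase nucleostemin, had signals of 1020.3 and 1521 with carnitine, 384 and 403 without. The lower carnitine pool was more than double either control pool, and the log2 fold change was 1.66 ± 0.25 (SE, limma adjusted p = 0.208), a fold of 3.16. Of the 20 genes of this step 18 had a positive log2 fold change, with a median of 0.67. An unadjusted p under 0.05 was reached by 10 that were higher (GNL3, PPAN, GTPBP4, NIFK, RRP15, NIP7, NOP16, PES1, RRS1 and MRTO4) and 0 that were lower. Without carnitine pool 2 the median of the step was 0.47.

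PPAN, an early factor of 60S precursors, had signals of 653 and 1071 with carnitine, 323 and 339 without, a log2 fold change of 1.34 ± 0.29 (SE, limma adjusted p = 0.342). GTPBP4, a GTPase of the same precursors, had signals of 872 and 1066 with carnitine, 471 and 529 without, a log2 fold change of 0.95 ± 0.22 (SE, limma adjusted p = 0.372). Control pools of both genes differed little, and carnitine pool 2 was the brighter of its diet. NIFK, a nucleolar protein that binds the proliferation antigen Ki-67, had signals of 1016 and 1315 with carnitine, 678 and 618 without and a log2 fold change of 0.84 ± 0.22 (SE, limma adjusted p = 0.399). RRP15 gave 746 and 889.9 against 363 and 508 and NOP16 304 and 378 against 145 and 208, both separate, with log2 fold changes of 0.92 ± 0.25 (SE) and 0.96 ± 0.31 (SE). NIP7 gave 206 and 304 against 116 and 95.3 and a log2 fold change of 1.25 ± 0.35 (SE, limma adjusted p = 0.421), while its other probe set, a dim one, was level at -0.035.

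PES1 forms a complex with BOP1 and WDR12 for processing of the 28S side of the precursor. Signals of PES1 were 588 and 687 with carnitine, 427 and 361 without. Its log2 fold change was 0.70 ± 0.23 (SE, limma adjusted p = 0.478). BOP1 was at the edge of what the array detects, with signals from 8.97 to 22.4 over the 4 arrays, and its direction turned without control pool 2 (-0.12). WDR12, not chosen by its name, gave 156 and 206 against 91.4 and 116. RRS1, which helps to load the 5S RNA particle, gave 264 and 221 against 149.7 and 97.0, and MRTO4, which holds the place of the ribosomal stalk, 588 and 972 against 417 and 507. Their log2 fold changes were 1.00 ± 0.35 (SE) and 0.72 ± 0.29 (SE), and both sets of signals were separate. RRP1B fell just short at 0.65 ± 0.28 (SE), with separate pools, and GNL2 was separate at 0.39 ± 0.23 (SE).

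SBDS, which with EFL1 releases EIF6 from the finished 60S subunit, had signals of 2416 and 2587 with carnitine, 2599 and 2399 without, and its log2 fold change was 0.0015 ± 0.18 (SE, limma adjusted p = 0.999). NOC2L, GNL3L, NOL12 and the dim NOC3L had log2 fold changes between -0.078 and 0.043, and NOL8 was dim and overlapped. EBNA1BP2 was lower, with 61.8 and 49.0 in the control pools against 23.3 and 29.5 with carnitine. That signal was below the median of the array, and its log2 fold change of -1.07 ± 0.56 (SE) had an unadjusted p of 0.0965 in limma.

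The RNA exosome, which trims and degrades precursor RNA, had a median of 0.21 over 6 genes, and from 0.13 without control pool 1 to 0.31 without carnitine pool 1. Polymerase I was the lower of these steps without control pool 2 (0.064 against 0.30) and without carnitine pool 2 (0.16 against 0.18), and the higher with all pools. EXOSC3, a cap subunit that binds RNA, was the exception with signals of 295 and 437 with carnitine, 114 and 170.1 without, a log2 fold change of 1.36 ± 0.35 (SE, limma adjusted p = 0.399). It was the only one of the 6 with an unadjusted p under 0.05, and 0 were lower. EXOSC1, another cap subunit, gave 914 and 1074 against 637 and 819 (0.46 ± 0.23 (SE) on the log2 scale), and its second probe set was higher by 0.83 (unadjusted p = 0.013 from limma). Of the ring subunits, EXOSC5 was slightly higher (0.29), EXOSC7 slightly lower (-0.21) and EXOSC9 overlapping (0.10). EXOSC10, the nuclease of the nuclear form, had signals of 831 and 976 with carnitine, 801 and 846 without, a log2 fold change of 0.13 ± 0.21 (SE). Without carnitine pool 2 the log2 fold change of EXOSC3 was 1.08 and that of EXOSC9 -0.18.

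The genes with no fixed step did not reach the threshold. LYAR, a nucleolar zinc finger protein, had signals of 455 and 436 with carnitine, 358 and 259 without. GNL1, a GTPase whose role in the ribosome is not settled, overlapped at 117 and 236 against 198 and 184. GNLY is granulysin, a toxin of T and NK cells that has no known role in making ribosomes and was taken in only because its symbol begins with GNL. Its signals were 337 and 235 with carnitine, 629 and 347 without, lower in both carnitine pools. GNLY is itself among the T and NK cell markers, and the summed signal of the other 8 was 1039 and 797 with carnitine, 1413 and 925 without, so that it overlapped. Their part in GNLY was not tested. Without these 3 genes the median was 0.54.

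**Figure D3:**
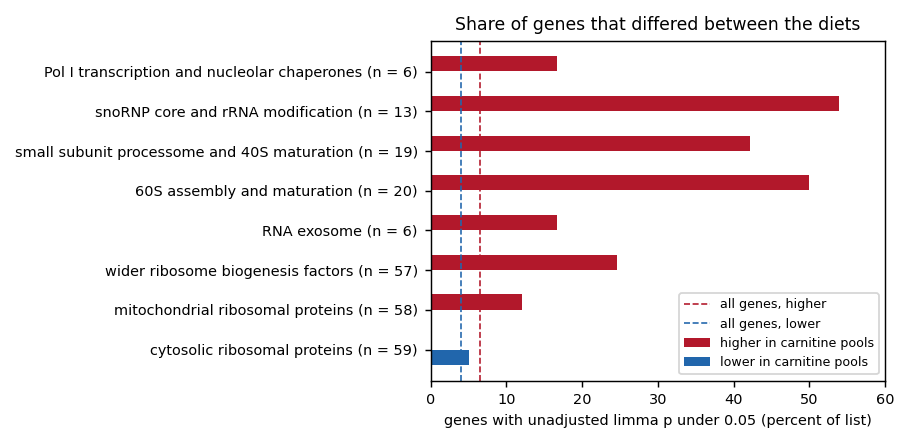
Percent of the genes of each step, and of 3 other lists, that were higher (red bars) or lower (blue bars) in the carnitine pools at an unadjusted limma p under 0.05, with dashed lines at the shares of all genes. The snoRNP, small subunit and 60S steps have 7 of 13, 8 of 19 and 10 of 20 genes higher, and the polymerase I and exosome steps 1 of 6 each.

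Brighter genes had smaller differences. A signal depends on the probes as well as on the transcript, so that brightness here is not a level. The 10 genes with the highest control signals, from 1223 (NOP56) to 6731 (NPM1), had a median difference of 0.12 on the log2 scale, and 2 of them (NOP56 and NOP58) were higher at an unadjusted p under 0.05. The other 50 genes above the median signal had a median of 0.64, and 24 of them were higher. Across the 60 genes above the median signal the log2 control signal and the log2 fold change correlated at r = -0.47 and Spearman's rho = -0.45. Across all 5039 genes of that brightness the values were -0.15 and -0.14. The control signal enters both measures, genes are not independent replicates, and these values are a description.

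Further probe sets of the same genes were mostly dim, with 24 of 32 below the median signal. Of these 32, 19 gave positive differences and 13 negative ones (median 0.40). Among the 8 above the median signal, 4 were above 0 and 4 below, and 3 were higher at an unadjusted p (those of DKC1, FTSJ3 and EXOSC1) and 0 lower. The second probe set of POLR1D gave -0.41 and that of NHP2 -0.37, so that for these genes the probe sets disagreed in sign, and neither difference passed.

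The carnitine pools also differed from each other. Carnitine pool 2 was the brighter carnitine pool for 50 of the 67 genes, against 51.5% of all genes, and its signal was the highest of the 4 for 41. The median log2 difference of carnitine pool 2 over pool 1 was 0.22 for the members and 0.012 for all genes. Control pool 1 was the brighter control pool for 35 of the 67. Relative to each gene's mean over the 4 arrays, the median of the members was 0.22 and 0.40 with carnitine, -0.26 and -0.30 without. With any pool left out the median log2 fold change of the 67 stayed above 0, from 0.46 without carnitine pool 2 to 0.64 without carnitine pool 1.

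**Figure D4:**
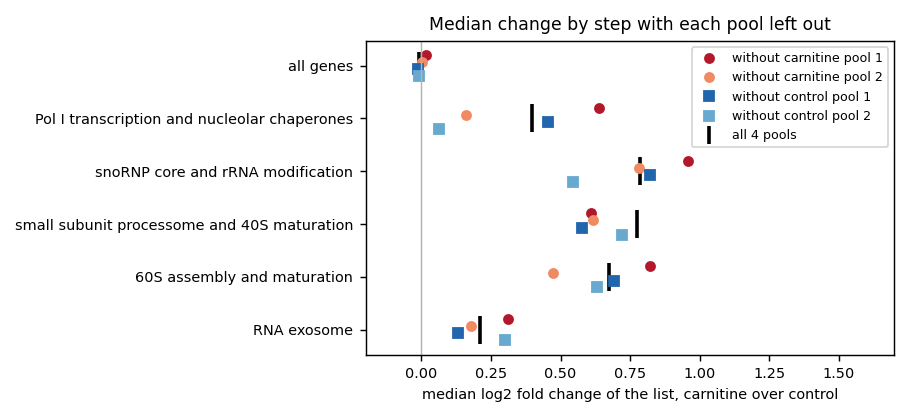
Median log2 fold change of the genes of each step with all 4 pools (black bar) and with each pool left out (coloured symbols), beside all genes. The symbols of the 5 steps all lie above 0, at a minimum of 0.064 for polymerase I without control pool 2, while those of all genes lie between -0.011 and 0.016.

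Other factors of the same pathway, which the symbol rule did not take, were read from a list of 100 genes, 57 of which were measured. By an unadjusted p under 0.05, 14 of them were higher and 0 lower, against 6.56% and 3.99% of all genes, and 0 passed after adjustment. The median was 0.31, with 43 genes on the positive side and 14 on the other. WDR74, a factor of 60S assembly, had signals of 881 and 1069 with carnitine, 483 and 374 without, a log2 fold change of 1.19 ± 0.24 (SE, limma adjusted p = 0.325). The processome protein WDR3 gave 389 and 500.1 against 228 and 196 and NGDN, of the same particle, 747 and 1143 against 495 and 397, each with a log2 fold change of 1.06. ESF1 and PWP1, both nucleolar, had log2 fold changes of 0.91 ± 0.23 (SE) and 0.79 ± 0.23 (SE). DDX21, an RNA helicase tied to polymerase I, was brighter and separate at 2446 and 2600.4 against 1630.3 and 1747 (0.58 ± 0.18 (SE)).

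Several other genes of that list did not reach the threshold. EIF6, which keeps the 60S subunit from joining too early, gave 1062 and 1246 against 1517 and 1175, and its release factor EFL1 156 and 202 against 131 and 156. Pools of the first overlapped, and those of the second were separate by less than 1 unit of signal. NSA2 was lower in both carnitine pools at 2981 and 3847 against 4359.7 and 4601 (-0.40 ± 0.20 (SE)), as was TRMT112, a cofactor of rRNA methyltransferases (-0.28 ± 0.18 (SE)). MYC, a transcription factor known to drive ribosome genes, had signals of 149 and 248 with carnitine, 211 and 526 without, which overlapped. The number of genes of the list that were higher fell to 2 without carnitine pool 2 and to 5 when the other was left out.

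Cytosolic ribosomal proteins, the other components of the ribosome, lay on the other side of 0. Among 59 genes the difference was positive for 8 and negative for 51, at a median of -0.22 (-0.11 after quantile normalization, -0.13 without carnitine pool 2). At an unadjusted p under 0.05, 0 were higher and 3 lower (RPL11, RPL14 and RPL15). These 3 are 5.08% of the list, near the 3.99% of all genes that were lower. Both carnitine pools were below both control pools for 39 of the 59 (66.1%), against 21.0% of all genes. Hepatocyte markers, also very bright, had 7 of 9 differences below 0 and a median of -0.12. Mitochondrial ribosomal proteins had a median of 0.10 over 58 genes, with 7 higher (12.1%, against 6.56% of all genes) and 0 lower. Their median was 0.055 without carnitine pool 2, 0.16 without carnitine pool 1 and 0.18 without control pool 1. These lists were chosen after values had been seen, and the differences between lists were not tested.

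**Figure D5:**
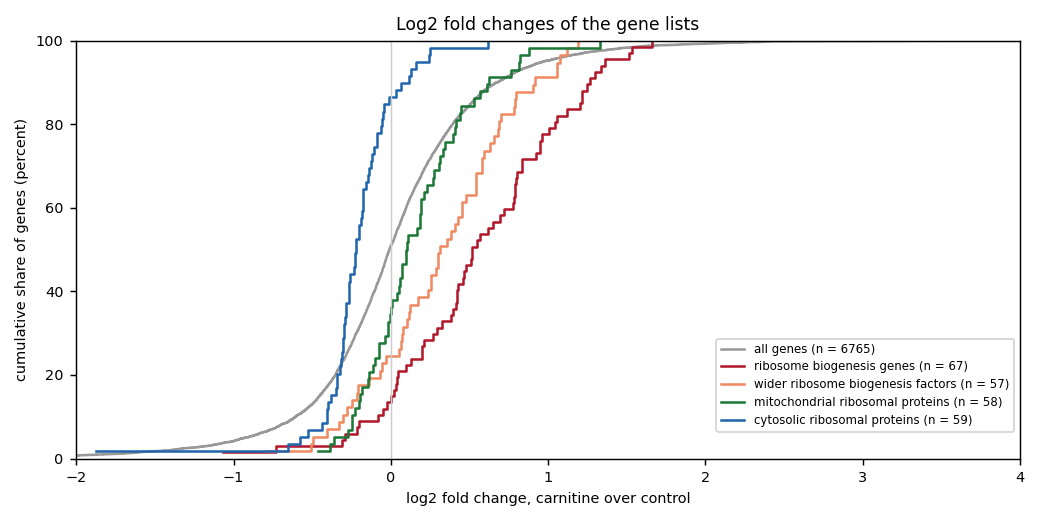
Cumulative share of genes by log2 fold change, carnitine over control, for all 6765 genes (grey), the 67 ribosome biogenesis genes (red), 57 wider factors (orange), 58 mitochondrial ribosomal proteins (green) and 59 cytosolic ribosomal proteins (blue). The curves cross 50% at 0.52 for the red and -0.22 for the blue list, on either side of all genes at -0.0089.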

How the data were processed

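Liver RNA of 4 pools was measured on single-colour Affymetrix porcine arrays. The authors deposited MAS5 signal intensities on a linear scale, with background removed and all arrays brought to the same trimmed mean. Named in the submitters' processing notes are MAS5 5.0, Affymetrix Expression Console 1.1 and GCOS 1.1.2. Calls of presence were not used here.

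Tests ran on log2 signals, without a pseudocount. Out of 24123 probe sets, 124 controls were left out. The other 23999 were fitted in limma 3.58.1 under R 4.3.3 with a variance trend, with Benjamini-Hochberg adjustment of p. A symbol came from the array annotation, which can be old: 10069 probe sets have 1 symbol, 198 several and 13732 none. No genome build is named, so that no coordinates are given. The fit has 2 residual degrees of freedom, and the number of arrays limits the precision. An exact permutation test of 2 pools against 2 cannot give a two-sided p below 0.333.

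Genes and lists were chosen with earlier results of these data known. Named were the 27 genes with an unadjusted p under 0.05, the 3 smallest p of each step, central factors, the 6 smallest p of the wider list and genes whose probe sets disagree. Other members, RRM2, TYMS, CCNA2, SPP1, ACTA2, DCN, COL1A2, WDR12, EIF6, EFL1, NSA2, TRMT112, MYC and the 3 ribosomal proteins were named after their values were seen. Alternatives were 2 normalizations, a floor, an offset of 64, a filter on signal, means over probe sets, 2 other variance models, a replicate block and leaving out each pool.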

Additional observations from a re-analysis of the deposited data

How the results depend on the processing

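The direction of the difference for the genes taken as a whole stayed the same under every alternative tried. With all 4 pools, every alternative but the analysis of variance gave 21 to 28 genes higher at an unadjusted p in limma. In these fits from 3.06% (without a variance trend) to 7.94% (with dim probe sets left out) of all genes were higher. Analysis of variance gave 11 higher, and 8 of the 57 wider factors, when 4.17% of all genes were higher. Of the wider factors, limma without a variance trend gave 5, when 3.06% of all genes were higher. The number lower was 1 with a floor, with an offset of 64, without the trend and by analysis of variance (EBNA1BP2) and with the replicate block (GNLY), and 1 wider factor was lower by analysis of variance and with the block. In these fits from 1.97% to 4.45% of all genes were lower. Centring on the array median left 3 genes with both carnitine pools below both control pools, against 5 without it. The share of all genes after centring is not given here. The median of the snoRNP step was 0.62 with a floor, 0.55 with the offset and 0.27 as a mean over probe sets. For the small subunit it was 0.51 with a floor and with dim probe sets left out, 0.46 with the offset and 0.48 over probe sets. BOP1 turned to -0.026 with a floor and EXOSC10 to -0.39 over probe sets, where its dimmer probe set enters.

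Pools of the 2 diets share numbers in the labels, and deviations of same-numbered pools correlated at 0.0032. Whether same-numbered pools were handled together is not stated in the labels and was not tested. With the replicate block, which leaves fewer residual degrees of freedom, 26 genes were higher at an unadjusted p in limma. Of all genes, 7.17% were higher and 4.45% lower in that fit, and of the wider factors 12 were higher. There 2 genes (GNL3 and NOP56) passed the adjusted p in limma, and the share of all probe sets that passed is not given here.

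With each pool left out in turn, 13 to 28 genes were higher and 0 to 2 lower (GNLY and IMP4, without control pool 2), while from 1.85% to 10.1% of all genes were higher and from 1.82% to 5.91% lower, and 6 to 11 had both carnitine pools below. Fewer pools overlap less by construction. The share of all genes with carnitine pools below in these fits is not given here, so that the 6 to 11 genes cannot be set against it. The median lay from 0.46 to 0.64 for all 67 genes, from 0.064 to 0.64 for polymerase I, from 0.54 to 0.96 for snoRNPs, from 0.58 to 0.72 for the small subunit, from 0.47 to 0.82 for 60S assembly and from 0.13 to 0.31 for the exosome. Of the wider factors 2 to 16 were higher and 0 to 1 lower. BOP1 ranged from -0.12 to 1.16 and SBDS from -0.056 to 0.059. Where not stated, the cause was not tested. With 2 pools per diet, genes near background have wide errors.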
